A study of Homo sapiens with 10 samples.

Results

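DNA repair genes were followed in DU145, an established human prostate cancer line that grows without androgen receptor signalling, after a short hairpin RNA lowered the transcription factor SOX4. The genes were chosen by symbol, as every row of the deposited table that carries a RAD, FANC, XRCC, ERCC or NEIL family name or 1 of a fixed set of repair gene names. The choice gave 82 genes of 13527 features. Of 86 names set out by pathway, 4 (MSH4, RAD9B, RAD21L1 and XRCC6BP1) were not analysed here. RNA-seq compared 3 libraries with a control hairpin (shCon, genotype given as Scramble) with 3 libraries with a SOX4 hairpin (shSOX4, genotype given as SOX4 knockdown), all from DU145 cells in DMEM with serum and with no drug or DNA-damaging agent in the labels. The labels do not say how many hairpins or clones stand behind a group. Another 4 libraries, ATAC-seq of DU145 with a vector or with SOX4 overexpression, were not analysed here.

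Cells repair each kind of DNA lesion by its own route. Double-strand breaks are mended by homologous recombination, which copies the sister chromatid, or by end joining, which ligates the ends. The Fanconi anaemia pathway unhooks crosslinks between strands, nucleotide excision repair cuts out bulky and ultraviolet lesions, base excision repair replaces damaged single bases, and mismatch repair corrects copying errors. Kinases of the ATM and ATR pathways signal the damage and hold the cell cycle. DU145 is known for mutant p53, for lacking functional RB and for defective mismatch repair, and loss of repair genes is a recognised feature of advanced prostate cancer.

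Libraries held 31189910 to 43361609 counts. Levels are given as CPM, the count of a gene over the library total in units of 1e+06, scaled by the trimmed mean of M-values (TMM). Changes are log2 fold changes of shSOX4 over shCon with their standard error (SE). A gene was called changed at a false discovery rate of 0.05 (Benjamini-Hochberg, over all 13527 features) in the quasi-likelihood test of edgeR. SOX4 itself stood at 12.9, 10.1 and 8.48 CPM in shCon 1, 2 and 3 and at 4.55, 6.44 and 6.01 CPM in shSOX4 1, 2 and 3. The groups did not overlap, and SOX4 fell by 0.89 in log2 units (SE 0.236; edgeR adjusted p = 0.0111, or 0.0598 without shCon 1). In a principal component analysis shCon 3 and shSOX4 1 stood apart from the other 4 libraries on the second component, with scores of -23.7 and -28.1 against 5.12 to 19.8. The median repair gene lay 0.14 lower on the log2(CPM + 1) scale in those 2 libraries than in the others of their group, against 0.02 lower for all features.

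Repair genes rose more often than they fell. Of the 82, 28 rose (34.1%) and 7 fell (8.54%), where 17% of all features rose and 15.8% fell, 32.8% in all. Their median log2 fold change was 0.33, against -0.01 over all features, and 52 had a positive value. All 3 shSOX4 libraries lay above all 3 shCon libraries for 36 repair genes and below them for 16, shares to be read against 23.1% and 23.9% of all features. By pathway, 9 of 19 homologous recombination genes rose, 5 of 8 in mismatch repair, 4 of 8 in end joining, 3 of 8 in checkpoint signalling and 3 of 13 in nucleotide excision repair, and in mismatch repair 1 also fell. The Fanconi anaemia group had 2 of 11 up and 4 down, and base excision and single-strand break repair 0 of 10 up and 2 down.

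**Figure D1:**
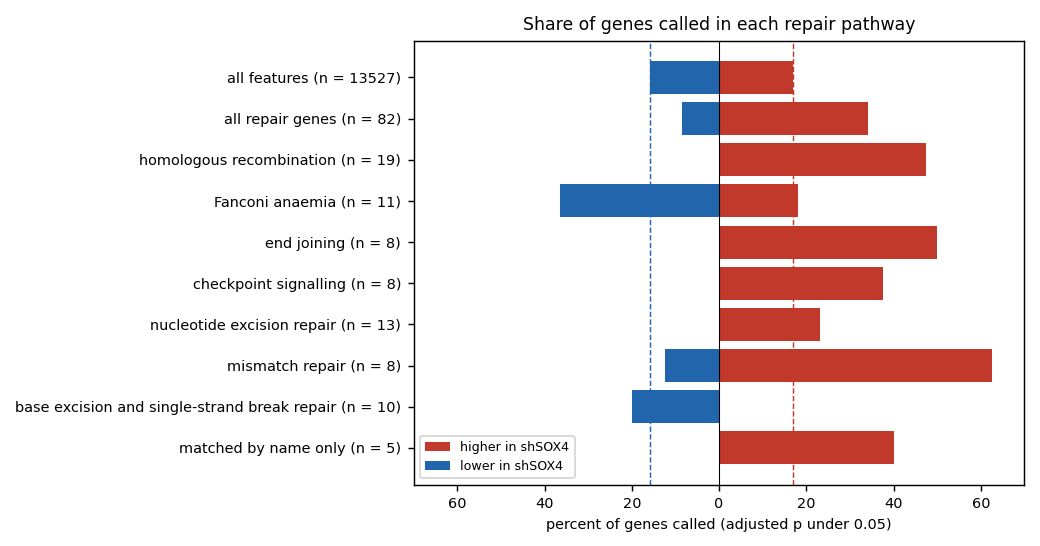
Horizontal bars give the percent of measured genes called higher (red, to the right) or lower (blue, to the left) in shSOX4 for all features, for the 82 repair genes and for each pathway, and dashed lines mark the shares of all features (17% higher, 15.8% lower). Mismatch repair reaches 62.5% higher, while base excision and single-strand break repair has no gene called higher.

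The summed level of the 82 genes overlapped between groups. It was 4239 to 4453 CPM in shCon and 4019 to 4463 CPM in shSOX4. On the length-scaled FPKM values of the authors, the highest repair gene was XRCC6 (324 ± 26.1 FPKM in shCon, SD, n = 3), a subunit of the Ku complex that caps DNA ends, followed by APEX1 (234 ± 16.9 FPKM), the abasic site nuclease. The lowest were BRCA2 (0.0619 FPKM) and RAD50 (0.0858 FPKM), and both rose. Each reached 1 CPM in 1 of 3 shCon libraries and stood in the table only with its shSOX4 values. Of the 23 repair genes with a mean under 5 CPM, 13 rose and none fell, where 17.9% of all features at that level rose and 13% fell (edgeR). The 13 include FANCB, RAD50, BRCA2 and MSH3, whose entry rested on their shSOX4 values, as set out below. Of the 10 at 100 CPM or more, 1 rose and 2 fell, where 12.9% of all features at that level rose and 18.7% fell.

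**Figure D2:**
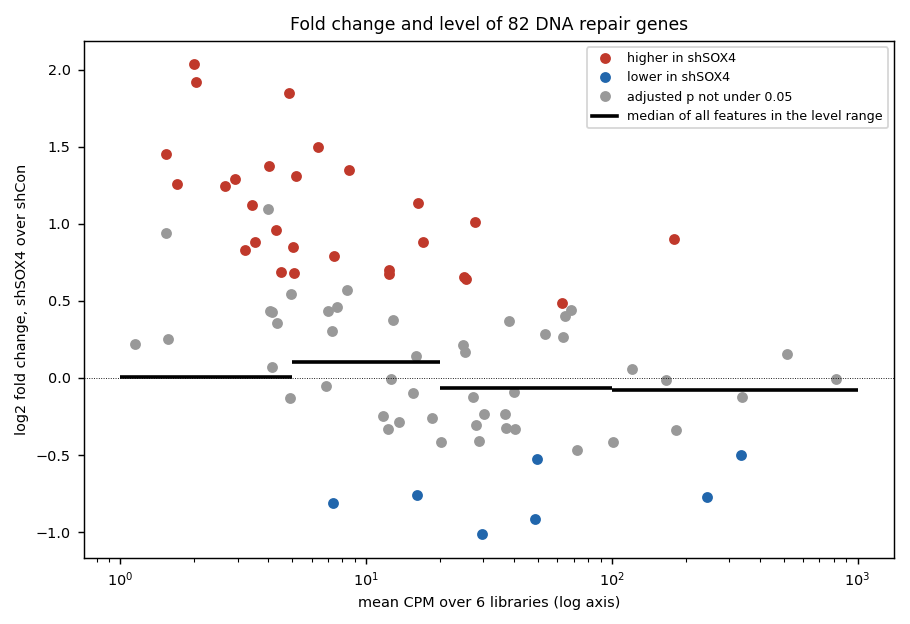
Each point is 1 of 82 repair genes, with its mean CPM over 6 libraries on a log axis and its log2 fold change, coloured by call. Black bars give the median fold change of all features in each range of level, which runs from -0.08 to 0.10, while the repair genes under 5 CPM have a median of 0.94. FANCB, RAD50, BRCA2, MSH3 and POLQ are among them, and their entry rested on their shSOX4 values.

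Every feature of the table reached 1 CPM, before TMM scaling, in at least 3 libraries, so a gene silent in control cells was kept only if it was high under the SOX4 hairpin. FANCB reached 1 CPM in no shCon library, and RAD50, BRCA2, MSH3 and POLQ did so in 1 of 3. Among the 74 repair genes at 1 CPM in every shCon library, 23 rose and 7 fell (31.1% and 9.46%), beside 15.3% and 16.9% of all 12641 such features. Transcript length, taken from the ratio of count to FPKM, moved with the changes too. Of the 26 repair genes with transcripts of 5000 bases or more 11 rose and none fell (edgeR), beside 24% and 11.2% of all features of that length, and of the 24 with 2000 to 3000 bases 3 rose and 4 fell, beside 12.5% and 19.1%. The part of level and length in the counts of repair genes was not tested.

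The number that rose depends on the libraries and on which genes were tested. Without shSOX4 2 it was 15 (18.3%, where 10.4% of all features rose) and 4 fell (4.88%, where 8.12% did). Without shCon 2 it was 19 (23.2%, where 13.3% of all features rose) and 4 fell (4.88%, where 12.2% did). Without shCon 3 and shSOX4 1 together 30 rose and 10 fell (36.6% and 12.2%, where 21.4% and 19.5% of all features did). With limma on log2(FPKM + 1), which kept 61 of the genes, 12 rose and 8 fell (19.7% and 13.1%, where 13.4% and 15.5% of all features did). Of the 35 called genes 21 were tested in that fit, and 19 of them kept their call. The authors' deposited table calls 28 repair genes up and 7 down, and these are the same 35 genes in the same directions.

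**Figure D3:**
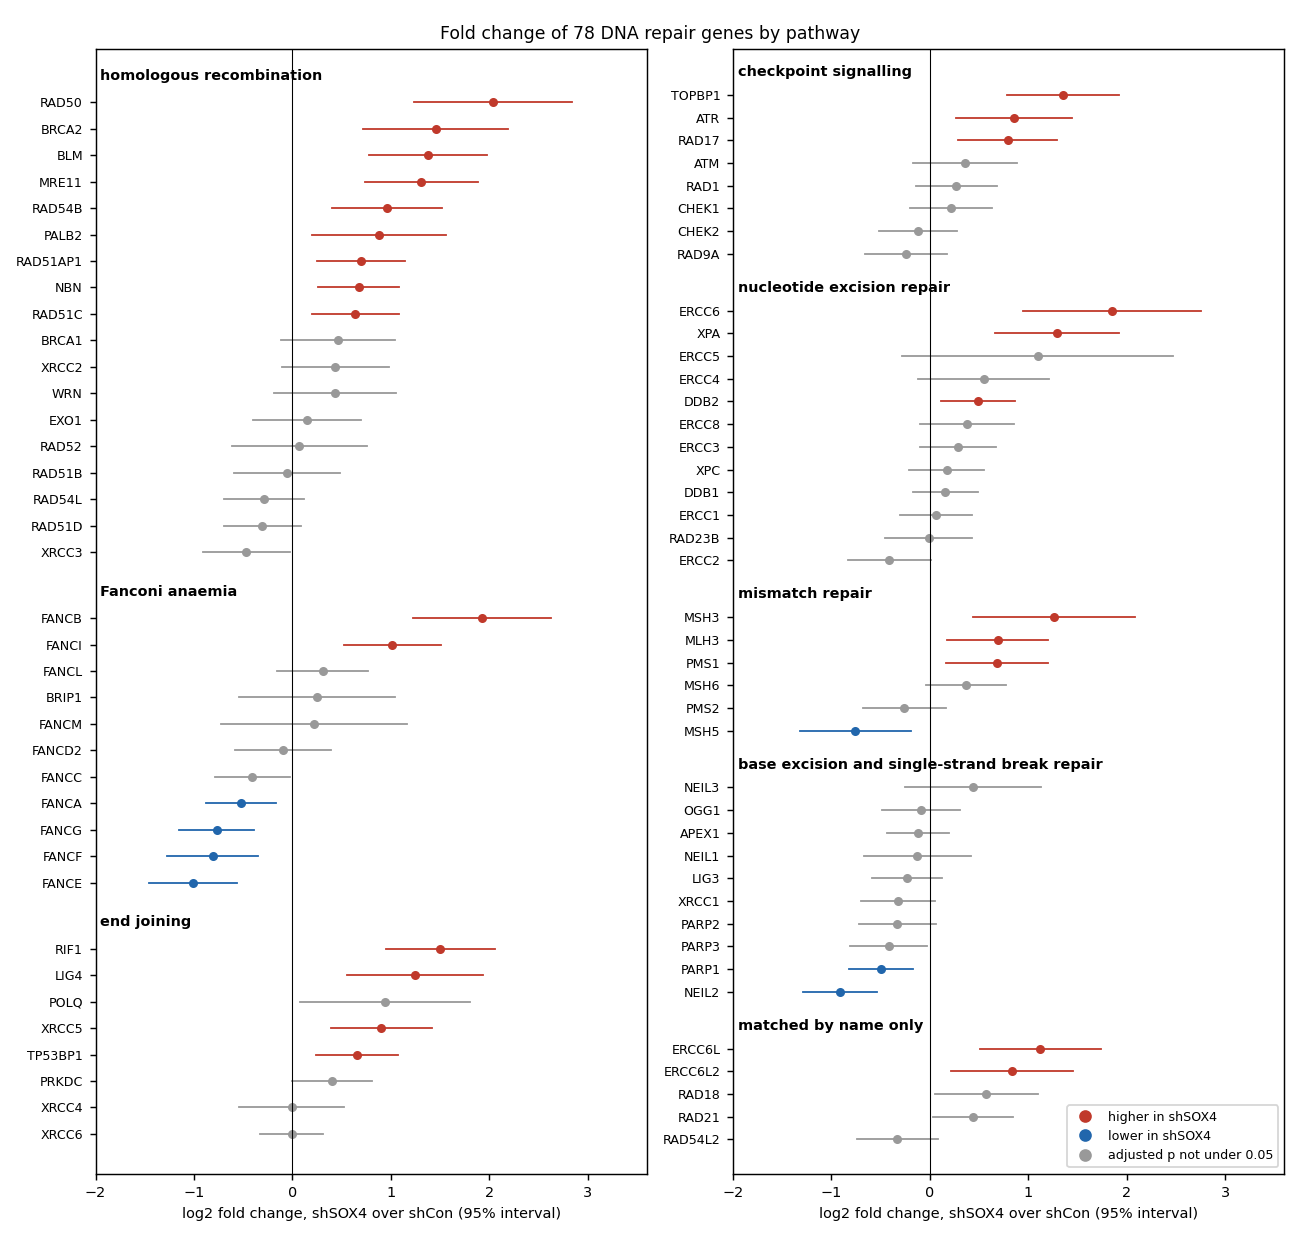
Points are log2 fold changes of shSOX4 over shCon for 78 of the repair genes with their 95% intervals, grouped by pathway and coloured by call. Values run from -1.01 for FANCE to 2.04 for RAD50, and in base excision and single-strand break repair 9 of 10 points lie below 0.

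Promoter sequence was read for the 70 of 82 genes matched in RefSeq's GRCh38.p14 annotation, from 250 bases before to 50 bases after the start of the gene. An E2F motif, the site of the factors that switch on S-phase genes, was searched as TTTCCCGC, TTTGGCGC or TTTCGCGC on either strand. It was in 9 of 70 repair promoters (12.9%), in 2.79% of all 27305 promoters and in 4.69% of the 9993 promoters of measured genes. Among the repair genes that rose 2 of 22 held it, among those that fell 0 of 6 and among those not called 7 of 42. The SOX motif AACAAAG, on either strand, was in 1 of 70 repair promoters (1.43%) and in 3.06% of promoters of measured genes. CCAAT was in 45.7% of repair promoters and 36.1% of those of measured genes, and the cell cycle element TTTGAA in 12.9% and 8.98%. Median GC content was 64% for the 22 that rose, 68.8% for the 6 that fell and 65.7% for measured genes. The promoters printed are those of TOPBP1 and MSH3, the risen genes with an E2F motif, and of BLM, the risen gene with the SOX motif, chosen after its value was seen. Capitals mark the E2F motif in the first 2 and the SOX motif in the third, where TOPBP1 holds TTTCGCGC on the other strand and in MSH3 TTTGGCGC overlaps TTTCGCGC of the other strand. A match of letters does not show binding.
TOPBP1 (chr3:133661892-133662191, minus strand): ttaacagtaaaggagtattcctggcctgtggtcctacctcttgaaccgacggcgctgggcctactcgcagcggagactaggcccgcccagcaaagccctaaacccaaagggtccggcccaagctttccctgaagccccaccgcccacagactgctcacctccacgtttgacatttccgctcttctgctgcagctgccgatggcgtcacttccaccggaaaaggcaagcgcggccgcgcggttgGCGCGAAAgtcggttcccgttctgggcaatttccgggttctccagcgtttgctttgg
MSH3 (chr5:80654402-80654701, plus strand): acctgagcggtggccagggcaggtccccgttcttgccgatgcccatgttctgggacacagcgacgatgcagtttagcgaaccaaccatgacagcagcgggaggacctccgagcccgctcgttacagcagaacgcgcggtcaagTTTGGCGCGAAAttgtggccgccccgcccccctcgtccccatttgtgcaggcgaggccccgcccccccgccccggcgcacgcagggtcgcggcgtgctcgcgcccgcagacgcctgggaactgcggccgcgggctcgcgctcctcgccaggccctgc
BLM (chr15:90717096-90717395, plus strand): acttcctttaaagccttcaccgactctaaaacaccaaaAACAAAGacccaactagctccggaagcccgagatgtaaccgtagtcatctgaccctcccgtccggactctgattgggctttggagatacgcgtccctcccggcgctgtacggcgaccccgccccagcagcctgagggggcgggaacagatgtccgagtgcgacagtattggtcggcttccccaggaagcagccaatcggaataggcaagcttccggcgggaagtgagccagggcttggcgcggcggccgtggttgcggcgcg

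In homologous recombination, 9 of 19 genes rose and none fell (edgeR; 1 had an unadjusted p under 0.05 downward, and DESeq2 and limma-voom called none down). The complex that finds and trims broken ends rose in all 3 subunits. RAD50, its ATPase, stood at 0.438, 0.994 and 0.933 CPM in shCon 1, 2 and 3 and at 3.81, 2.69 and 3.13 CPM in shSOX4 1, 2 and 3. The groups were far apart, and RAD50 rose by 2.04 (SE 0.376, adjusted p = 0.00124, edgeR). RAD50 reached 1 CPM in 1 of 3 shCon libraries and in all 3 shSOX4 libraries. It stood in the table only with its shSOX4 values, so its direction was partly set by its entry. MRE11, the nuclease, went from 3.59, 3.04 and 2.27 CPM to 9.27, 6.44 and 6.43 CPM. Each shSOX4 library lay above each shCon library, and the gene rose by 1.31 (SE 0.267, adjusted p = 0.00242, edgeR). NBN, the subunit that recruits ATM, averaged 9.54 ± 0.338 CPM in shCon and 15.2 ± 1.35 CPM in shSOX4 (SD, n = 3 each) and rose by 0.67 (SE 0.192, adjusted p = 0.0161, edgeR).

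Levels of the helicase gene BLM, whose product unwinds recombination intermediates, were 2.26, 2.28 and 2.19 CPM in shCon and 3.99, 6.72 and 6.76 CPM in shSOX4 1, 2 and 3. Its controls were tight, shSOX4 1 was the lowest of the knockdown libraries, and the rise was 1.37 (SE 0.28, adjusted p = 0.00242, edgeR). BRCA2, which loads the recombinase onto single strands, went from 0.964, 0.645 and 0.845 CPM to 1.94, 2.29 and 2.53 CPM. It rose by 1.45 (SE 0.345, adjusted p = 0.00605, edgeR) without overlap. Like RAD50, BRCA2 reached 1 CPM in 1 of 3 shCon libraries, so its direction too was partly set by its entry. PALB2, the partner that bridges BRCA1 and BRCA2, rose by 0.88 (adjusted p = 0.0465, edgeR), RAD54B, a DNA translocase, by 0.96 (adjusted p = 0.0132, edgeR), the recombination factor gene RAD51AP1 by 0.70 and the strand exchange factor gene RAD51C by 0.64.

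BRCA1, the ubiquitin ligase subunit that starts end resection, had 6.97, 6.66 and 5.54 CPM in shCon and 5.57, 12.2 and 8.66 CPM in shSOX4, so that shSOX4 1 lay within the controls (0.46, SE 0.27, adjusted p = 0.199, edgeR). Without shSOX4 1 BRCA1 was called up. The strand exchange factor genes RAD51B (-0.05), RAD51D (-0.30), XRCC2 (0.44) and XRCC3 (-0.47) did not pass, nor did RAD52 (0.07), the translocase gene RAD54L (-0.29), the nuclease gene EXO1 (0.14) and the helicase gene WRN (0.43). The calls of RAD50, MRE11, BLM and BRCA2 held in each fit without 1 library. That of RAD54B was lost without shCon 2, that of NBN without shCon 2 or shSOX4 2, that of RAD51AP1 without shCon 2, shSOX4 2 or shSOX4 3, that of RAD51C without shCon 3, shSOX4 2 or shSOX4 3, and that of PALB2 without shCon 1, shCon 3, shSOX4 2 or shSOX4 3 (adjusted p up to 0.183, edgeR). Leaving out shSOX4 2 gave 5 risen genes in this pathway (26.3%, where 10.4% of all features rose). Leaving out shCon 2 or shSOX4 3 gave 6 (31.6%, where 13.3% and 12.4% did).

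**Figure D4:**
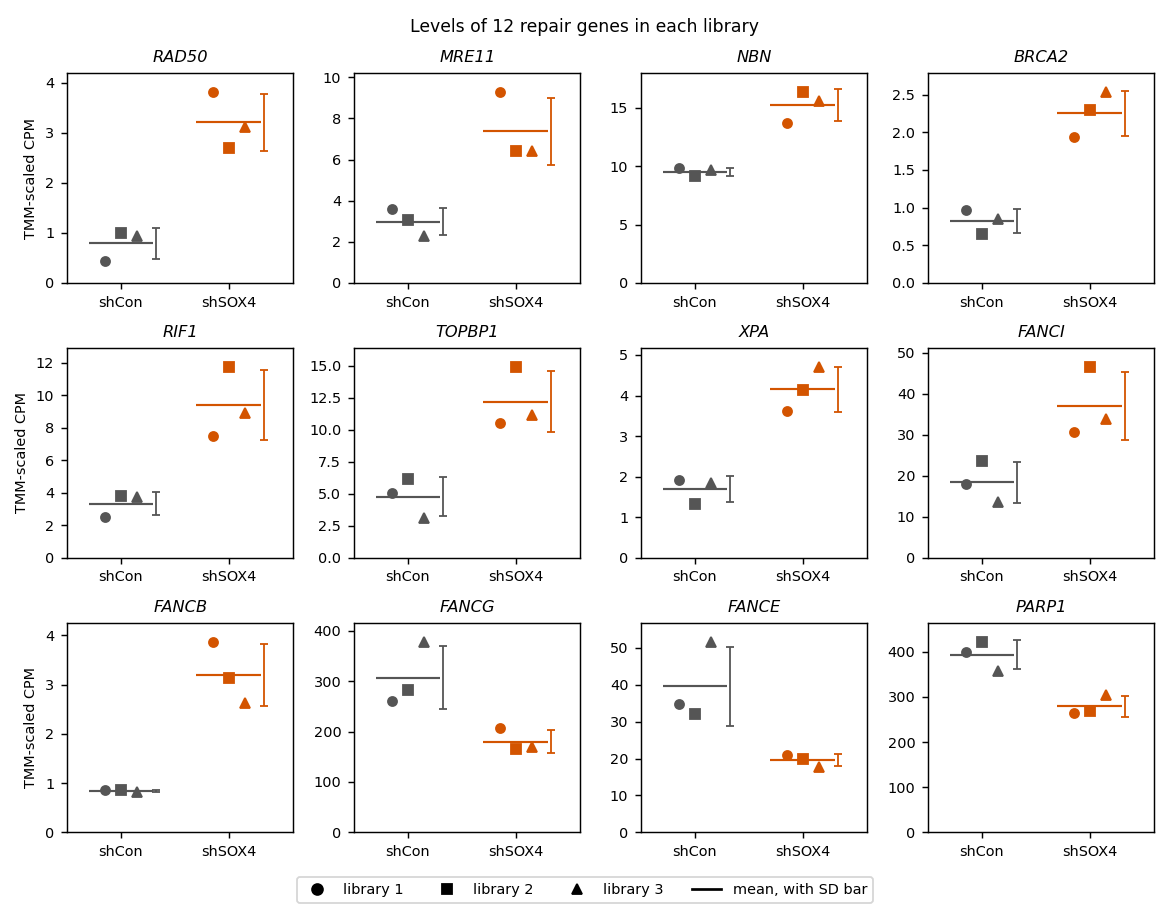
TMM-scaled CPM of 12 repair genes in each library, on linear axes that start at 0; circles, squares and triangles are libraries 1, 2 and 3, horizontal lines the group means and bars the SD. In every panel the 3 shSOX4 libraries lie wholly above (RAD50 to FANCB) or wholly below (FANCG, FANCE, PARP1) the 3 shCon libraries. This follows from the choice of panels, which are all called genes without overlap. Of the 82 repair genes 36 lay wholly above and 16 wholly below, beside 23.1% and 23.9% of all features. XRCC5 and MSH5, called with overlap, are not shown.

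The falls among the Fanconi anaemia genes lay in their core complex, the ubiquitin ligase that marks FANCD2 and FANCI at a crosslink. Of its genes FANCA, FANCE, FANCF and FANCG fell. FANCB rose, but it reached 1 CPM in no shCon library and was kept only through its shSOX4 values. Its rise is therefore not weighed against the falls. FANCG, the most abundant, stood at 261, 282 and 378 CPM in shCon 1, 2 and 3 and at 206, 165 and 169 CPM in shSOX4 1, 2 and 3. The groups did not overlap, although shCon 3 was the highest control and shSOX4 1 the highest knockdown library, and FANCG fell by 0.77 (SE 0.177, adjusted p = 0.0052, edgeR). FANCE, which binds FANCD2, went from 34.8, 32.2 and 51.7 CPM to 21.1, 19.9 and 17.8 CPM, a fall by 1.01 (SE 0.209, adjusted p = 0.00264, edgeR). FANCF, an adaptor of the complex, fell by 0.81 (adjusted p = 0.0117, edgeR; lost without shCon 2, adjusted p = 0.0598) and FANCA by 0.52 (58.3 ± 2.57 CPM in shCon, 40.6 ± 2.41 CPM in shSOX4, SD, n = 3 each; edgeR adjusted p = 0.0264; lost without shCon 2 or any 1 shSOX4 library, adjusted p up to 0.128).

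FANCB, whose product holds the catalytic module together, was called up, a direction fixed beforehand by its entry through the shSOX4 libraries alone. Its levels were 0.854, 0.86 and 0.816 CPM in shCon and 3.87, 3.13 and 2.62 CPM in shSOX4, and it rose by 1.92 (SE 0.328, adjusted p = 0.000713, edgeR). The catalytic subunit gene FANCL (0.31), FANCC (-0.41) and the translocase gene FANCM (0.22) did not pass. Of the 2 substrates, FANCI rose by 1.01 (SE 0.231, adjusted p = 0.00484, edgeR), from 18, 23.5 and 13.6 CPM to 30.7, 46.5 and 33.9 CPM, while FANCD2 stood at 18.7, 17.7 and 11.9 CPM and at 11.6, 17.3 and 16.2 CPM (-0.10, 95% interval -0.59 to 0.39, adjusted p = 0.766, edgeR). The ratio of FANCI to FANCD2, in which library scaling cancels, was 0.964, 1.33 and 1.14 in shCon and 2.66, 2.69 and 2.09 in shSOX4. It was higher in each knockdown library, a contrast picked after the values were seen and given without a test. BRIP1, a helicase that binds BRCA1, had a value of 0.25 (adjusted p = 0.63, edgeR). Without shCon 2 the number down in this pathway was 2 of 11 (18.2%), where 12.2% of all features fell.

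In end joining 4 of 8 genes rose and none fell (edgeR; no gene had an unadjusted p under 0.05 downward, and DESeq2 and limma-voom called none down). RIF1, which shields ends from resection, went from 2.5, 3.76 and 3.7 CPM in shCon to 7.48, 11.7 and 8.93 CPM in shSOX4. Each knockdown library lay well above each control, and RIF1 was 2.83-fold higher (SE 0.26 in log2 units, adjusted p = 0.000796, edgeR). TP53BP1, the chromatin reader that recruits RIF1, rose by less, 0.65 (SE 0.195, adjusted p = 0.0199, edgeR), from 19.5 ± 3.47 to 30.6 ± 3.12 CPM (SD, n = 3 each). LIG4, the ligase of the pathway, rose from 1.57 ± 0.505 to 3.73 ± 0.501 CPM (1.25, SE 0.324, adjusted p = 0.0101, edgeR).

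The Ku subunits differed in their calls. XRCC5 had 156, 131 and 88.6 CPM in shCon and 153, 281 and 267 CPM in shSOX4 1, 2 and 3, so shSOX4 1 lay below shCon 1 although the gene passed (0.90, SE 0.239, adjusted p = 0.0114, edgeR). XRCC6 held 801, 820 and 827 CPM in shCon and 717, 794 and 923 CPM in shSOX4 (-0.01, 95% interval -0.33 to 0.31, adjusted p = 0.97, edgeR). The ratio of XRCC5 to XRCC6 was 0.195, 0.159 and 0.107 in shCon and 0.214, 0.353 and 0.29 in shSOX4, higher in each knockdown library but by little in shSOX4 1. Like that of FANCI to FANCD2, this ratio was picked after the values were seen and is given without a test. Close copies in the genome make the count of XRCC6 uncertain. PRKDC, the kinase that Ku recruits, had 55.7 ± 9.02 and 73.6 ± 13.5 CPM (SD, n = 3 each; 0.40, SE 0.19, adjusted p = 0.117, edgeR). XRCC4, the partner of LIG4, had a value of -0.01, and POLQ, the polymerase of the alternative route, of 0.94 (adjusted p = 0.0853, edgeR; called up without shSOX4 1). XRCC5 and TP53BP1 were lost without shSOX4 2 or shSOX4 3 (adjusted p up to 0.104, edgeR). Either fit left 2 of 8 genes up (25%), where 10.4% and 12.4% of all features rose.

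Among 8 checkpoint genes 3 rose and none fell (edgeR; no unadjusted p under 0.05 downward, none down by DESeq2 or limma-voom), and the 3 act on the ATR side. TOPBP1, which activates ATR, went from 5.08, 6.15 and 3.09 CPM to 10.6, 14.9 and 11.2 CPM. All knockdown libraries were higher, and the rise was 1.35 (SE 0.265, adjusted p = 0.00187, edgeR). ATR stood at 2.61, 4.78 and 3.41 CPM in shCon and at 7.22, 6.99 and 5.27 CPM in shSOX4 (0.85, SE 0.274, adjusted p = 0.0281, edgeR). RAD17, which loads the checkpoint clamp, rose by 0.79 (SE 0.234, adjusted p = 0.0197, edgeR). Clamp subunit genes RAD1 (0.27) and RAD9A (-0.24) did not pass.

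The kinases downstream of ATR and ATM did not pass either. CHEK1 had 22.8 ± 1.93 and 26.5 ± 5.13 CPM (0.21, SE 0.197, adjusted p = 0.425, edgeR) and CHEK2 28.5 ± 4.68 and 26.1 ± 0.84 CPM (-0.12, SE 0.186, adjusted p = 0.639, edgeR; SD, n = 3 each). ATM was at 3.92, 3.87 and 3.59 CPM in shCon and at 4.84, 5.6 and 4.11 CPM in shSOX4 (0.35, 95% interval -0.17 to 0.88, adjusted p = 0.283, edgeR). Its groups did not overlap, and the interval takes in both no change and one as large as that of ATR. The call of ATR was lost without shCon 1, shCon 3 or shSOX4 2 (adjusted p up to 0.111, edgeR). That of RAD17 was lost without shCon 2 or shSOX4 2. Thus 1 of 8 genes rose without shSOX4 2 (12.5%), near the 10.4% of all features.

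Mismatch repair had the highest share in the fit of all 6 libraries, with 5 of 8 genes up (62.5%, where 17% of all features rose) and MSH5 down. That rank did not hold in every fit. Without shCon 2 its share was 25%, against 50% for end joining. MSH3, a sensor of larger loops, rose by 1.26 (SE 0.386, adjusted p = 0.0224, edgeR) from 0.999 ± 0.13 to 2.4 ± 0.989 CPM (SD, n = 3 each), with shSOX4 1, at 1.26 CPM, close to the controls. MSH3 reached 1 CPM in 1 of 3 shCon libraries, so its direction was partly set by its entry. MLH3 and PMS1, which belong to the step after the mismatch is found, rose by 0.69 and 0.68 (adjusted p = 0.0391 and 0.0441, edgeR).

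MSH6 and PMS2 did not pass. MSH6, a sensor of single mismatches, had 37.3, 35.5 and 27.1 CPM in shCon and 37.4, 49.4 and 42.2 CPM in shSOX4 (0.37, SE 0.191, adjusted p = 0.153, edgeR). PMS2, a nuclease of the pathway, had 20.3 ± 2.94 and 16.9 ± 2.18 CPM (SD, n = 3 each; -0.26, adjusted p = 0.325, edgeR), and close copies of PMS2 in the genome make its count uncertain, as they do for XRCC6, CHEK2 and FANCD2. MSH5, a factor of meiotic recombination, fell by 0.76 (adjusted p = 0.0403, edgeR) with overlap, shSOX4 1 at 15.6 CPM against shCon 2 at 13.6 CPM, and it shares reads with a readthrough transcript. Several calls rested on single libraries. MSH3 lost its call without shCon 2, shSOX4 2 or shSOX4 3, MLH3 in each fit but that without shSOX4 1, PMS1 in each but that without shSOX4 3, and MSH5 without shCon 1, shCon 3, shSOX4 2 or shSOX4 3 (adjusted p up to 0.187, edgeR). The number up was thus 2 of 8 (25%) without shCon 2 or shSOX4 2, where 13.3% and 10.4% of all features rose. It was 3 (37.5%) without shCon 1, shCon 3 or shSOX4 3, where 14.7%, 15.3% and 12.4% did.

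Nucleotide excision repair had 3 of 13 genes up and none down (edgeR; no unadjusted p under 0.05 downward, none down by DESeq2 or limma-voom; 1 down without shSOX4 1), a share of 23.1% closer to the 17% of all features. XPA, the scaffold that checks the lesion, went from 1.93, 1.32 and 1.84 CPM to 3.61, 4.15 and 4.7 CPM. The rise was 1.29 (SE 0.294, adjusted p = 0.00473, edgeR) without overlap. ERCC6, the remodeller that starts repair at stalled RNA polymerase, varied widely within groups, with 1.95, 3.55 and 0.787 CPM in shCon and 4.61, 8.33 and 9.79 CPM in shSOX4 (1.85, SE 0.424, adjusted p = 0.00501, edgeR). DDB2, a sensor of ultraviolet lesions, rose by 0.49 (SE 0.174, adjusted p = 0.0433, edgeR), a call lost in each fit without 1 library except that without shCon 3 (adjusted p up to 0.142).

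XPC, the main sensor of helix distortion, had 23.9 ± 2.33 and 26.8 ± 0.524 CPM (SD, n = 3 each; 0.17, SE 0.177, adjusted p = 0.482, edgeR). Its partner gene RAD23B (-0.01) did not pass. The helicase genes ERCC3 (0.29) and ERCC2 (-0.41; called down without shSOX4 1), the nuclease genes ERCC1 (0.06) and ERCC4 (0.54), ERCC8 (0.38) and DDB1 (0.15) also missed the threshold. ERCC5, the other nuclease gene, spread widely, at 4.88, 0.86 and 1.84 CPM in shCon and 0.821, 8.23 and 7.29 CPM in shSOX4 (1.09, SE 0.645, adjusted p = 0.204, edgeR). It was lowest in shSOX4 1 and was called up without shSOX4 1 or without shCon 1. ERCC5 and ERCC6 each share sequence with a readthrough or fusion transcript, so the division of their reads is uncertain.

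Base excision and single-strand break repair was the group of the name rule with no gene up (edgeR; no unadjusted p under 0.05 upward, none up by DESeq2 or limma-voom, 1 up without shSOX4 1), and its median was -0.28. The 15 base excision genes outside the name rule had a median of 0.16, with 9 positive, 1 up (TDG) and 1 down, so the negative values describe these 10 genes and not the pathway as a whole. NEIL2, a glycosylase for oxidised bases, went from 55.7, 63.5 and 72.4 CPM in shCon to 35.2, 31.4 and 35.2 CPM in shSOX4. The 2 groups were well separated and NEIL2 fell by 0.91 (SE 0.176, adjusted p = 0.00168, edgeR). PARP1, the abundant sensor of strand breaks that is the target of PARP inhibitors, went from 400, 422 and 358 CPM to 264, 268 and 305 CPM. It fell by 0.50 (SE 0.151, adjusted p = 0.0222, edgeR), to 70.9% of its control level, and lost its call without shCon 1, shCon 2, shSOX4 1 or shSOX4 2 (adjusted p up to 0.108). PARP2 (-0.33), PARP3 (-0.42, adjusted p = 0.0902, edgeR), the scaffold gene XRCC1 (-0.32) and the ligase gene LIG3 (-0.23) were lower in all 3 shSOX4 libraries than in any control and did not pass. Such a split is common, with 23.9% of all features wholly below the controls. It held for 6 of these 10 genes and for 2 of the 15 outside the name rule. APEX1 (-0.12), the glycosylase genes OGG1 (-0.09) and NEIL1 (-0.13) and NEIL3 (0.44; called up without shSOX4 1) overlapped between groups.

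The 5 remaining genes share a name with the families but act elsewhere or beside these routes. ERCC6L, a translocase of mitotic DNA bridges, rose 2.18-fold (SE 0.287 in log2 units, adjusted p = 0.0094, edgeR) from 2.16 ± 0.515 to 4.71 ± 0.686 CPM and ERCC6L2, a further helicase-like gene, by 0.83 (SE 0.289, adjusted p = 0.0393, edgeR) from 2.3 ± 0.453 to 4.11 ± 0.765 CPM (SD, n = 3 each). The ERCC6L2 call was lost without shCon 2, shCon 3, shSOX4 2 or shSOX4 3 (adjusted p up to 0.138), which left 1 of these genes up, and 4 were up without shSOX4 1. RAD18, a ligase that marks stalled forks, had a value of 0.57 (adjusted p = 0.0861, edgeR), the cohesin subunit gene RAD21 0.44 and RAD54L2 -0.33.

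**Figure D5:**
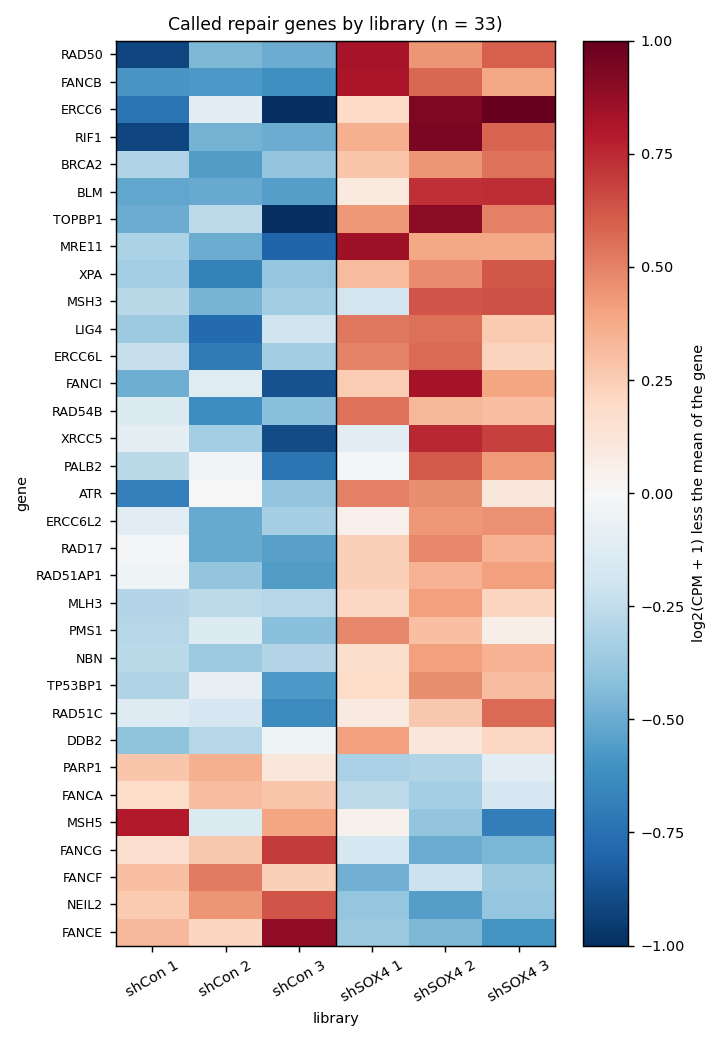
Rows are 33 of the repair genes called changed, ordered by fold change, and columns the 6 libraries; colour is log2(CPM + 1) less the mean of the gene over libraries, limited to -1 and 1. For XRCC5, PALB2 and MSH3, shSOX4 1 is close to or below the mean of the gene, while for RAD50, FANCB and MRE11 it is the highest library.

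Repair genes outside the name rule were counted apart. Of 105 measured, 23 rose (21.9%) and 8 fell (7.62%), with a median of 0.23, where 17% and 15.8% of all features did. Without shSOX4 2 8 rose (7.62%) and 2 fell (1.90%), where 10.4% and 8.12% of all features did, so the share that rose was then under that of all features. The numbers were 12 and 3 without shSOX4 3 (11.4% rose, where 12.4% of all features did). They were 13 and 6 without shCon 2 (12.4%, where 13.3% did) and 16 and 3 without shCon 3 (15.2%, where 15.3% did). With total-count scaling 14 rose (13.3%, where 15% did). In each of these fits too, the share that rose was under that of all features. It was above it without shCon 1 (19%, where 14.7% did) and without shSOX4 1 (24.8%, where 19.6% did). TDG, a glycosylase for mispaired thymine, had 8.72, 6.99 and 4.43 CPM in shCon and 15.2, 30.5 and 27.4 CPM in shSOX4 (1.85, SE 0.29, adjusted p = 0.000376, edgeR). The list of post-replication repair and direct reversal had 7 of 14 up and 1 down (50% and 7.14%). It joins tolerance of unrepaired lesions by ubiquitin marking and translesion polymerases with the direct reversal genes MGMT, ALKBH2 and ALKBH3. Among those up were the ubiquitin-conjugating enzyme genes UBE2N (0.89) and UBE2A (0.70). These were the 2 of 14 that rose without shSOX4 2, where 10.4% of all features rose. In the Fanconi anaemia list USP1, which removes the mark from FANCD2, rose by 0.84 (adjusted p = 0.00543, edgeR) and CENPS by 0.66. RMI2, a subunit of the BLM complex, fell by 0.92 (adjusted p = 0.00172, edgeR) and the structure-specific nuclease gene MUS81 by 0.77 (adjusted p = 0.00409, edgeR), 2 of 3 falls against 5 rises in 25 homologous recombination genes. Among excision repair genes GTF2H4 fell by 0.63 and GTF2H1, of the same complex, rose by 0.99, RFC3 and PCNA rose by 0.71 and 0.52, the checkpoint gene TIPIN rose by 0.73, and POLL fell by 0.54. Of these, USP1, TDG, RMI2, MUS81, UBE2N and UBE2A kept their call in each fit without 1 library.

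Replication and mitosis genes were counted beside them, with no test between the groups. Of 28 replication fork genes 4 rose and 2 fell (14.3% and 7.14%, median 0.08), with RRM1 up by 1.64, MCM6 by 1.06 and POLA1 by 1.34. Of 28 mitosis genes 8 rose and 2 fell (28.6% and 7.14%, median 0.26), with CENPE up by 2.13, ANLN by 0.77 and CENPF by 1.05. Together 12 of 56 rose (21.4%) and 4 fell (7.14%), where 17% and 15.8% of all features did. Without shCon 3 and shSOX4 1 the number up was 21 (37.5%), where 21.4% of all features and 36.6% of the 82 repair genes rose. It was 19 without shSOX4 1 (33.9%, where 19.6% of all features rose) and 8 without shSOX4 2 (14.3%, where 10.4% did). The number that fell was 0 without shCon 2 or without shSOX4 2, 1 without shSOX4 1 and 2 without shCon 1 (edgeR). The part of the cell cycle in the repair changes was not tested.

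All 7 epithelial markers were measured, with KRT8 at 1828 ± 396 CPM in shCon and 4603 ± 209 CPM in shSOX4 (SD, n = 3 each), and KRT8 and KRT18 rose while CDH1, EPCAM and ITGA6 fell (EPCAM not without shCon 2 or without shSOX4 2). Fibroblast markers were low and rose, 3 of 7 measured (LUM, PDGFRB and COL1A1) at a summed 1.69 to 2.48 CPM in shCon and 9.55 to 16 CPM in shSOX4, and LUM was at 0 in shCon 3. The endothelial marker CDH5, 1 of 5 measured, went from 0.525 to 0.942 CPM to between 4.7 and 6.62 CPM. The 2 of 7 leukocyte markers measured went opposite ways. CD68 fell, from a mean of 106 CPM in shCon to 47 CPM in shSOX4. CD14 averaged 2.18 CPM in shCon and 2.87 CPM in shSOX4 and did not pass (0.41, adjusted p = 0.449, edgeR). Their part in the repair changes was not tested, and in bulk RNA fewer cells of a kind cannot be told from less RNA per cell.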

How the data were processed

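RNA-seq of 6 DU145 libraries was used. Per the file headers, the authors deposited a raw count for every gene and library. Beside it stands an FPKM value, which the authors scaled to length and depth, per the file headers. The authors' log2 fold change and the authors' adjusted p-value of each gene are in the same table. Tools named by the submitters' processing notes, with no roles, are STAR, HISAT2, Bowtie2, deepTools 2.07 and MACS2 2.1.1, with build hg19. The counter, strand setting and filter: not given in the sources used here. Columns NC1 to NC3 were taken as shCon and SH1 to SH3 as shSOX4, by number. No label states separate cultures, so the p-values may reflect technical spread only.

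Counts were tested with edgeR 4.0.16 in R 4.3.3 (TMM, filterByExpr, quasi-likelihood F test, two-sided, group as the only term, Benjamini-Hochberg over 13527 features; the filter removed none). Alternatives used DESeq2 1.42.0, limma 3.58.1 (voom, and log2(FPKM + 1) or log2(FPKM + 0.1) with a mean of at least 1 FPKM), RLE or total-count scaling, other filters, a replicate block, a minimum change of 1.5-fold, and fits that left out libraries. The fit was tested on simulated data. Libraries of a group differed by a chi-square of 28.8 to 139 per degree of freedom, so none repeats another. Members, pathways and gene lists were chosen with earlier results of these data known. Full statistics go to the 3 called genes with the smallest adjusted p of each pathway and to 16 listed genes; any member may be named, and some genes are counted but not reported here. Promoters come from RefSeq's GRCh38.p14, not hg19.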

Additional observations from a re-analysis of the deposited data

How the results depend on the processing

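RLE scaling, limma-voom, DESeq2, both other filters and total-count scaling kept the numbers of repair genes up and down within 1.5 times. No repair gene reversed among called values in the 17 alternatives, and 17 of the 35 called kept their call in all 6 fits without 1 library. Counting up and then down, fits without 1 library gave 15 to 32 and 4 to 6 for the repair genes, 1411 to 2653 and 1098 to 2313 for all features, 8 to 26 and 2 to 12 for other repair genes, 8 to 19 and 0 to 4 for cell cycle genes, 5 to 10 up in homologous recombination, 2 to 4 down in Fanconi anaemia, 2 to 5 up in end joining, 1 to 3 up in checkpoint signalling, 2 to 3 and 0 to 1 in nucleotide excision repair, 2 to 4 and 0 to 1 in mismatch repair, 0 to 1 and 1 to 2 in base excision repair and 1 to 4 up among genes matched by name only. With limma on log2(FPKM + 1), genes with a mean under 1 FPKM, FANCB among them, were not tested. In that fit 12 of 61 repair genes (19.7%) and 1514 of 11287 features (13.4%) rose. Other repair genes had 11 up and 5 down of 95 (11.6% and 5.26%, where 13.4% and 15.5% of all features did). By pathway, 4 of 13 rose in homologous recombination, 2 of 5 in end joining, 2 of 6 in mismatch repair, 0 of 8 in Fanconi anaemia and 0 among genes matched by name. With log2(FPKM + 0.1), on the same genes, these numbers were 12, 1373, 9 and 5, 4, 1, 3, 0 and 0, where 12.2% of all features rose. In that fit 1 cell cycle gene, 0 mismatch and 1 base excision gene fell, where 13.8% of all features did. The test against a 1.5-fold change, stricter by construction, gave 10 repair genes up and 0 down (12.2% and 0%). Of all features 782 and 413 passed (5.78% and 3.05%). Among the 10 were RAD50, MRE11, BLM, BRCA2, FANCB, RIF1, TOPBP1, XPA and ERCC6, and the entry of FANCB, RAD50 and BRCA2 rested on their shSOX4 values. That test gave 1 and 0 other repair genes (0.952% up), 2 and 0 cell cycle genes (3.57% up) and 4 up in homologous recombination. It gave 1 up each in Fanconi anaemia, end joining, checkpoint signalling and mismatch repair, 0 matched by name, and 0 down in Fanconi anaemia, mismatch and base excision repair. Total-count scaling left 14 other repair genes up, 3 up and 0 down in mismatch repair and 1 up matched by name; the cause was not tested. Leaving out shCon 3 and shSOX4 1 gave 21 cell cycle genes up and 1 excision repair gene down.

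With the replicate block 13 other repair genes rose (12.4%, where 13.5% of all features did) and 5 fell. In that fit 1 cell cycle gene fell, 3 mismatch genes rose, 1 base excision gene fell and 1 gene matched by name rose. Of the 35 repair calls 26 held. Deviations of same-numbered libraries correlated at -0.43, 0.15 and -0.39, so the numbers do not pair them, and shCon 3 went with shSOX4 1 (0.60). Low counts limit the genes near 1 CPM, FANCM, BRCA2, POLQ and BRIP1 among them.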
